A study of Danio rerio with 30 samples.

Results

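The Bmal, Clock and Rev-erb genes form the part of the circadian clock that sets the level of Bmal transcripts, and 8 of the 27731 genes in the deposited table, all of these families, are described here. They are the Bmal genes arntl1a (ENSDARG00000006791), arntl1b (ENSDARG00000035732) and arntl2 (ENSDARG00000041381), the Clock genes clocka (ENSDARG00000011703) and clockb (ENSDARG00000003631), and the Rev-erb genes nr1d1 (ENSDARG00000033160), nr1d2a (ENSDARG00000003820) and nr1d2b (ENSDARG00000009594). They were taken by gene name or gene ID, from a choice made with their values over region and age already known, so their own differences are given as values with standard errors, and counts of calls among them stand only beside those of all genes, with nothing read from them. All 8 passed the filter on low values (10 or more normalised counts in 5 or more libraries), as did 17360 genes in all.

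In vertebrates, Bmal and Clock proteins pair and switch on genes that carry E-box elements, among them the Period, Cryptochrome and Rev-erb genes. Period and Cryptochrome proteins then inhibit the Bmal and Clock pair. Rev-erb proteins are nuclear receptors that repress Bmal genes, and ROR receptors act on the same DNA elements as activators. Many cell types of the zebrafish, the retina included, hold clocks that light can set.

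RNA was sequenced from dissected pieces of the embryonic zebrafish retina. One piece was the region of the optic fissure (OF), the gap in the ventral optic cup that closes during development, and the other was the dorsal retina (DR). Both were taken at 32, 48 and 56 hours post fertilisation (hpf), with 5 biological replicates in each of the 6 groups. The labels name no strain, genotype, treatment, pooling of embryos, light schedule or hour of day, and the groups differ by region and age alone. The ages lie 16 and 8 hours apart, and 56 hpf follows 32 hpf by 24 hours. Age, hour of day and time spent in light or darkness therefore cannot be told apart. Ventral retina outside the fissure was not a group of its own. In such bulk samples fewer cells of a type and less RNA per cell cannot be told apart.

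A library held between 4.49 M and 12.32 M reads in genes, and the median library 9.75 M. Both replicate 1 libraries at 32 hpf stood apart, with a read in 13854 (OF) and 11777 (DR) genes where the other libraries had one in 17462 to 25740. Of those others, the 32 hpf libraries had a read in 17462 to 19311 genes, and those of 48 and 56 hpf in 18841 to 25740. The DR library of the replicate 1 pair was the shallowest, so that 1 read in it was worth 3.33 normalised counts and a gene without a read could still hold up to 9.99. The replicate 5 pair at 48 hpf went against its region labels, since vax2, a ventral gene, had 21.6 normalised counts in the library labelled OF (377 to 550 in the others) and 342 in the library labelled DR (0 to 20.1 in the others). DR replicate 1 at 56 hpf had a read in 25740 genes. Where leaving out either of the first 2 of these pairs moved a value by much, the value without it is also given. Close paralogs can share reads, and the table does not show how these were assigned, and the strand setting of the counting was not given in the sources used here, so reads from overlapping antisense genes cannot be told apart from those of the 8 genes.

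**Figure D1:**
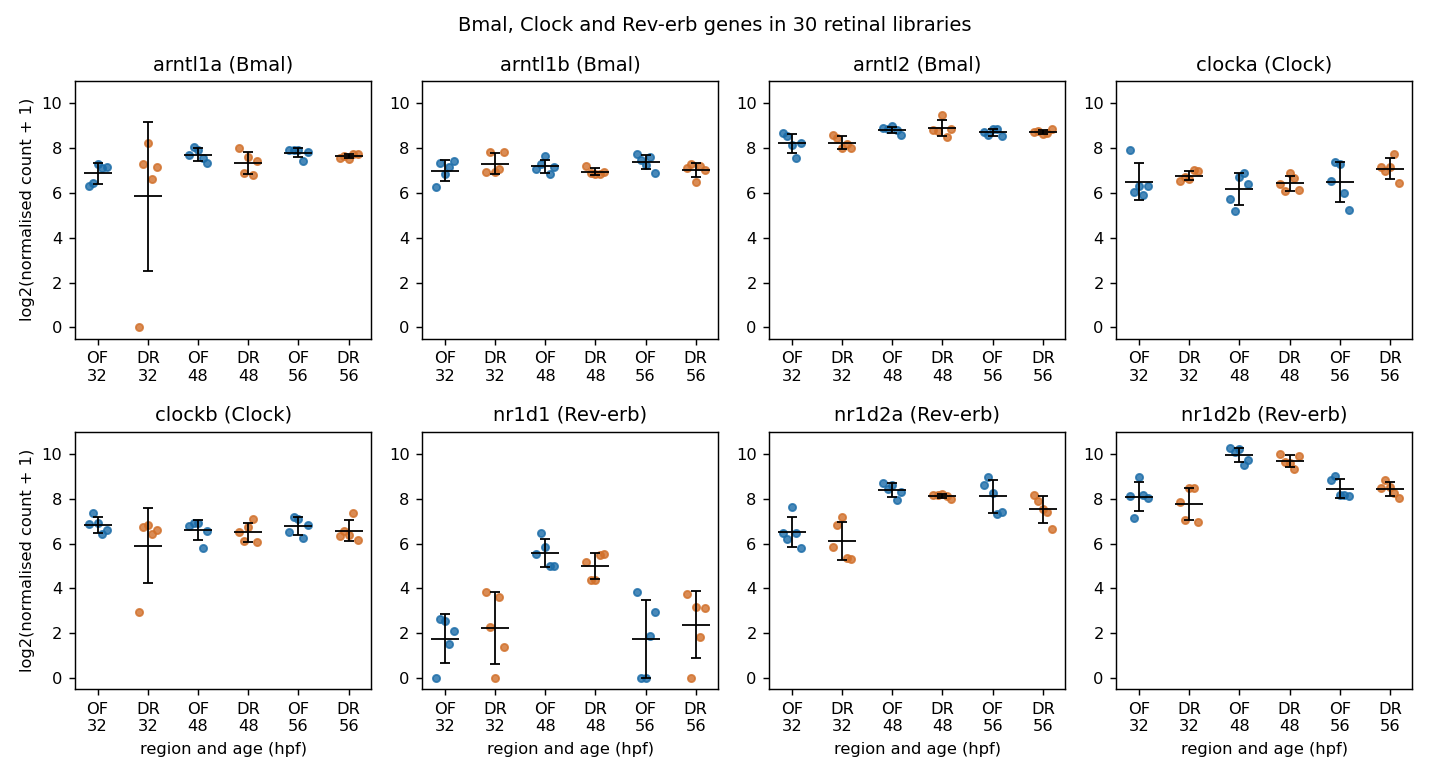
Each panel shows 1 gene, with 1 point per library on a log2(normalised count + 1) axis, by region (OF blue, DR orange) and age, and black lines for the mean and SD of 5 libraries. nr1d1 and nr1d2b stand above all other groups in both regions at 48 hpf, nr1d2a is high at 48 and 56 hpf, and the low point of arntl1a at 32 hpf in DR is replicate 1 with 0 reads.

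The repressor genes of the loop held the largest differences between 32 and 48 hpf among the 8. nr1d2b, a Rev-erb beta gene, was 3.68-fold higher at 48 than at 32 hpf in OF and 3.81-fold higher in DR, and it was lower again at 56 hpf, by 2.85-fold and 2.41-fold. nr1d1, the Rev-erb alpha gene, had the same order of ages from a much lower number of reads. nr1d2a, the other Rev-erb beta gene, was also higher at 48 than at 32 hpf, but at 56 hpf it was still 3.01-fold (OF) and 2.66-fold (DR) above 32 hpf. For the activator genes clocka, clockb and arntl1b the libraries of the 3 ages overlapped in each region. With the deposited values, arntl2 was higher at 48 and 56 hpf by little more than the typical gene.

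In OF, nr1d2b had 280, 142, 503, 285 and 261 normalised counts in replicates 1 to 5 at 32 hpf, then 1219, 1085, 1212, 739 and 853 at 48 hpf, and 453, 523, 287, 286 and 276 at 56 hpf. In DR it had 230, 132, 353, 354 and 125 at 32 hpf, 1019, 791, 779, 643 and 955 at 48 hpf, and 357, 455, 371, 304 and 260 at 56 hpf. Every library of 48 hpf, of either region, was above every library of 32 and 56 hpf, while those of 32 and 56 hpf overlapped. The group means were 294 ± 130, 1021 ± 216 and 365 ± 115 in OF and 239 ± 113, 837 ± 150 and 349 ± 73.8 in DR (SD, n = 5). On the log2 scale the difference between 48 and 32 hpf was 1.88 (SE 0.29) in OF and 1.93 (SE 0.29) in DR, that between 56 and 48 hpf was -1.51 and -1.27, and that between 56 and 32 hpf, 24 hours apart, was 0.37 and 0.66. The replicate 1 pair had little weight in this, as the differences between 48 and 32 hpf were 1.89 and 1.95 without it.

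nr1d1 was read rarely. In OF it had 0, 5.23, 4.86, 1.85 and 3.33 normalised counts in replicates 1 to 5 at 32 hpf, 44.9, 88.5, 56.9, 30.8 and 31.1 at 48 hpf, and 13.6, 0, 0, 2.68 and 6.63 at 56 hpf. In DR it had 13.3, 3.8, 0, 11.5 and 1.6 at 32 hpf, 35.1, 19.7, 20.1, 44.3 and 45 at 48 hpf, and 12.5, 0, 7.94, 2.61 and 7.8 at 56 hpf. Libraries of 48 hpf in both regions again lay above all others. They held 36 to 95 reads of the gene in OF and 20 to 50 in DR, and no library of another age held more than 13. The log2 difference between 48 and 32 hpf was 3.81 (SE 0.81) in OF and 2.77 (SE 0.81) in DR, and that between 56 and 48 hpf was -3.84 and -2.61. Between 56 and 32 hpf it was -0.03 and 0.16, with 17 reads over the 5 OF libraries at 32 hpf and 24 at 56 hpf. Without the replicate 1 pair the differences between 48 and 32 hpf were 3.37 and 3.17. At these counts the value moved with the scaling, and quantile scaling gave 2.24 in OF and 1.28 in DR for 48 against 32 hpf, and -1.65 and -1.66 for 56 against 32 hpf.

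nr1d2a had 88.8, 72.2, 198, 87.7 and 55 normalised counts in OF at 32 hpf, 413, 346, 398, 244 and 313 at 48 hpf, and 390, 506, 304, 157 and 168 at 56 hpf. In DR it had 56.6, 114, 144, 40.7 and 38.5 at 32 hpf, 288, 284, 299, 275 and 256 at 48 hpf, and 286, 237, 184, 169 and 98.2 at 56 hpf. Libraries of 48 hpf lay above those of 32 hpf in both regions, but those of 56 hpf overlapped both of the earlier ages. The mean at 56 hpf was 305 ± 149 in OF and 195 ± 71.1 in DR (SD, n = 5), with replicates 4 and 5 lowest in both regions. The log2 difference was 1.88 (OF) and 2.02 (DR) for 48 against 32 hpf, -0.29 and -0.61 for 56 against 48 hpf, and 1.59 and 1.41 for 56 against 32 hpf (SE 0.37 for each). The last of these sets it apart in value from nr1d2b, for which the same difference was 0.37 and 0.66.

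**Figure D2:**
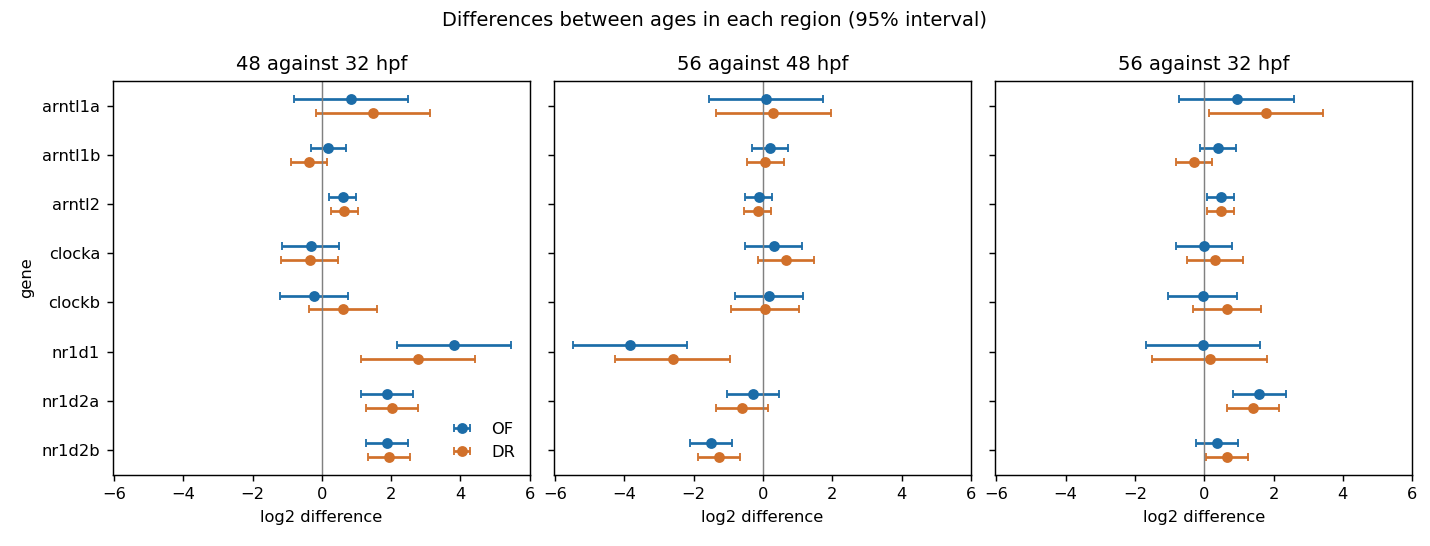
Log2 differences of the 8 genes between ages, in OF (blue) and DR (orange), with 95% intervals from the fit over all 30 libraries. The 3 Rev-erb genes lie to the right at 48 against 32 hpf, nr1d1 and nr1d2b to the left at 56 against 48 hpf, and nr1d2a remains to the right at 56 against 32 hpf; the wide intervals of arntl1a go with 1 library at 0 reads.

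Among the activators, arntl2 (Bmal2), a partner of Clock, was read in every library. In OF it had 409, 368, 279, 188 and 300 normalised counts at 32 hpf, 471, 461, 506, 453 and 389 at 48 hpf, and 424, 379, 461, 457 and 369 at 56 hpf. In DR it had 390, 355, 254, 289 and 258 at 32 hpf, 455, 440, 726, 364 and 459 at 48 hpf, and 425, 439, 392, 407 and 461 at 56 hpf. Both later ages were mostly above 32 hpf, and only DR at 56 hpf did not overlap its 32 hpf group. That margin was narrow, with 392 against 390 in DR replicate 1 of 32 hpf, where 1 read was worth 3.33 normalised counts. The log2 difference between 48 and 32 hpf was 0.60 in OF and 0.64 in DR (SE 0.19), where the median over all 17360 genes was 0.38 and 0.35. Between 56 and 32 hpf it was 0.48 in both regions, where the median gene was at 0.42 and 0.46. These margins depended on the scaling. Under quantile scaling the OF value for 56 against 32 hpf was 0.28, where the median gene was at -0.22. In DR no setting gave less than 0.35, and quantile scaling put the median gene at -0.2.

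arntl1a (Bmal1a) had 78.5, 86.8, 158, 139 and 142 normalised counts in OF at 32 hpf, 209, 262, 240, 191 and 159 at 48 hpf, and 240, 243, 240, 172 and 224 at 56 hpf. In DR it had 0, 157, 299, 98.1 and 142 at 32 hpf, 254, 119, 192, 110 and 174 at 48 hpf, and 190, 202, 183, 211 and 212 at 56 hpf. In OF both later groups lay above the 32 hpf group, the lowest of 48 hpf by a small margin, while in DR the ages overlapped. The log2 difference between 48 and 32 hpf was 0.84 in OF and 1.48 in DR (SE 0.81), but the DR value rested on replicate 1, which had 0 reads of the gene where the other DR libraries of that age had 94 to 292. Without the replicate 1 pair it was 0.70 in OF and 0.02 in DR, and for 56 against 32 hpf it was 0.79 and 0.32 in place of 0.93 and 1.78. The SE of 0.81 comes from a spread shared by all groups. That spread takes in DR at 32 hpf, with a log2 SD of 3.33, where OF at 32 and 48 hpf had 0.46 and 0.28.

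arntl1b (Bmal1b) lay between 75.5 and 226 normalised counts in every library, and its group means between 123 and 171. Its log2 difference between 48 and 32 hpf was 0.19 in OF and -0.36 in DR (SE 0.25), the first of which was -0.25 under quantile scaling. Of the Clock genes, whose products pair with Bmal, clocka varied more among the OF libraries of an age. It ranged from 35.4 to 243 normalised counts, with an SD on the log2 scale of 0.72 to 0.91 within the OF groups, where arntl1b had 0.29 to 0.47. It had differences of -0.32 and -0.35 for 48 against 32 hpf and 0.31 and 0.66 for 56 against 48 hpf (OF and DR, SE 0.40). Its highest library was OF replicate 1 at 32 hpf, and without the replicate 1 pair the first of these values was 0.04. clockb ranged from 6.66 to 163, and apart from DR replicate 1 at 32 hpf, with 2 reads, no library was under 55.7. Its differences between 48 and 32 hpf were -0.23 in OF and 0.60 in DR (SE 0.48), and the latter was -0.14 without the replicate 1 pair. This SE, too, takes in DR at 32 hpf, with a log2 SD of 1.67, where OF at 32 and 48 hpf had 0.35 and 0.46.

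Apart from the pseudocount of 1, ratios within a library do not depend on its size factor, although their zero point has no meaning because transcript lengths were not used. The summed count of the 3 Rev-erb genes over that of the 3 Bmal genes had a mean log2 ratio of -0.60 ± 0.69 at 32 hpf, 0.77 ± 0.22 at 48 hpf and -0.35 ± 0.51 at 56 hpf in OF (SD, n = 5). In DR the means were -1.01 ± 0.69, 0.57 ± 0.27 and -0.49 ± 0.41. In OF the lowest ratio at 48 hpf was 0.42, above the highest at 32 hpf (0.36) and at 56 hpf (0.37), and in DR it was 0.09, above -0.36 and -0.20. In each region every library of 48 hpf thus had a higher ratio of repressor to activator transcripts than any library of the other ages. Between the Rev-erb beta paralogs, nr1d2b over nr1d2a had a mean log2 ratio of 1.57 at both 32 and 48 hpf in OF and of 0.35 at 56 hpf, where the highest library (0.86) was below the lowest of the earlier ages (0.97). In DR the means were 1.65, 1.56 and 0.90, and the groups overlapped.

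**Figure D3:**
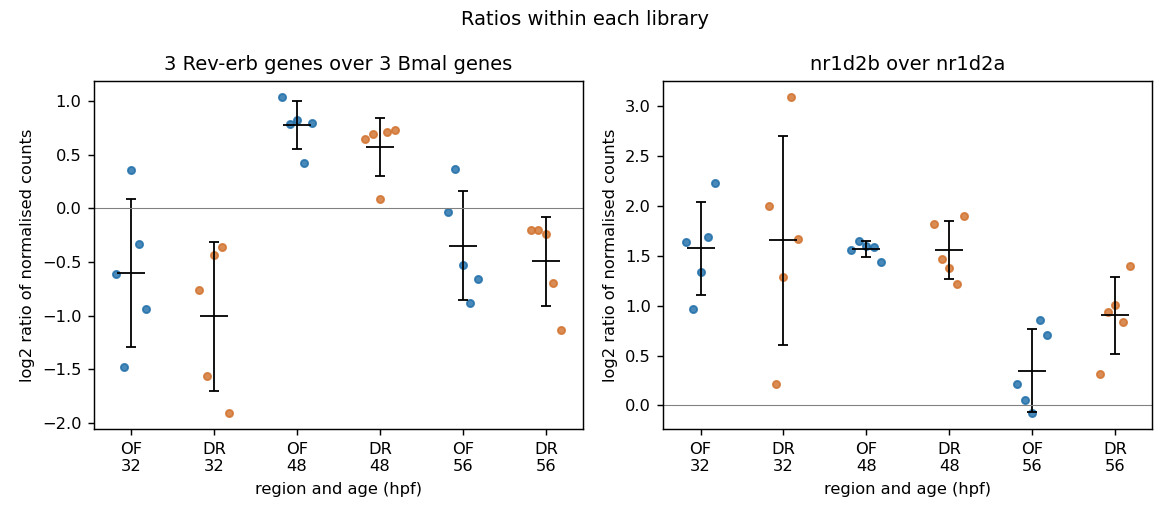
Log2 ratios of normalised counts within each library, by region and age, with mean and SD of 5 libraries in black. The Rev-erb to Bmal ratio (left) is highest at 48 hpf in each region, and nr1d2b over nr1d2a (right) is lowest at 56 hpf, with OF at a mean of 0.35.

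Set in order of group mean, nr1d2b ran OF 48, DR 48, OF 56, DR 56, OF 32 and DR 32 hpf, and nr1d1 ran OF 48, DR 48, DR 56, DR 32, OF 56 and OF 32 hpf. For both, the step from DR 48 hpf to the next group was the only one between neighbours without overlap. Every neighbouring pair of groups overlapped for the other 6 genes. nr1d2a ran from OF 48 hpf (343) through OF 56, DR 48, DR 56 and OF 32 to DR 32 hpf (78.9). arntl2 ran from DR 48 (489) through OF 48, DR 56, OF 56 and OF 32 to DR 32 hpf (309). arntl1a was highest in OF at 56 hpf (224), followed by OF 48, DR 56, DR 48, DR 32 and OF 32 hpf (121).

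No gene of the 8 had OF libraries that all lay above or all below the DR libraries at any age, where 1.17%, 0.887% and 2.95% of all genes had at 32, 48 and 56 hpf. At 48 hpf the replicate 5 pair was counted by its labels, which its region markers go against. A gene that follows region would overlap there, so the 48 hpf count cannot show whether the regions differ. For nr1d2b the log2 difference of OF to DR was 0.33 at 32 hpf (95% interval -0.27 to 0.93), 0.28 at 48 hpf (-0.32 to 0.88) and 0.03 at 56 hpf (-0.57 to 0.64). For nr1d2a it was 0.41, 0.27 and 0.58, with the last interval from -0.17 to 1.34, and OF was above DR in 4 of the 5 replicate pairs at each age. The 4 pairs at 48 hpf include replicate 5 (313 in OF and 256 in DR), which goes against its region labels. arntl2 was the most tightly bounded, at -0.03 (-0.42 to 0.36), -0.07 (-0.45 to 0.32) and -0.03 (-0.41 to 0.36). nr1d1 had the widest range of the Rev-erb genes, from 0.58 at 48 hpf to -0.65 at 56 hpf, with an interval from -2.30 to 1.01 at the last age. At 32 hpf the largest values of the 8 were those of arntl1a (1.01, SE 0.81) and clockb (0.92, SE 0.48). Without DR replicate 1 of 32 hpf arntl1a stood at -0.46. Without the replicate 1 pair of 32 hpf and the replicate 5 pair of 48 hpf clockb stood at 0.17. Without the replicate 5 pair of 48 hpf the value at that age was 0.39 for nr1d2b, 0.26 for nr1d2a and 0.85 for nr1d1. The change from 32 to 48 hpf differed between OF and DR by -0.05 for nr1d2b (95% interval -0.90 to 0.80), by -0.14 for nr1d2a (-1.21 to 0.93) and by 1.04 for nr1d1 (-1.29 to 3.38). The nr1d1 value was 0.20 without the replicate 1 pair of 32 hpf and 1.60 without DR replicate 3 of that age.

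Counts over the 8 genes follow the way they were chosen and are given beside those of all genes. They include nr1d1, which passed the filter only through its 48 hpf libraries. In OF, 4 of 8 had libraries at 48 hpf that all lay above 32 hpf (arntl1a and the Rev-erb genes), as had 16.7% of all 17360 genes, and in DR 3 of 8 (the Rev-erb genes), as had 14.4%. At 56 against 48 hpf 2 of 8 lay wholly lower in each region (nr1d1 and nr1d2b), as did 0.415% of all genes in OF and 0.357% in DR. At 56 against 32 hpf 1 of 8 lay wholly higher in OF (arntl1a, 22.5% of all genes) and 1 in DR (arntl2, 17.8%). At an adjusted p under 0.05 in limma, 4 of 8 were called at 48 against 32 hpf in each region (arntl2 and the Rev-erb genes), beside 35.2% of all genes in OF and 28.5% in DR. At 56 against 32 hpf 2 of 8 were called in each region (nr1d2a and arntl2), beside 42.2% and 35.8%. At 56 against 48 hpf limma called 0 of 8, beside 0.0173% in OF and 0.0115% in DR. At an unadjusted p under 0.05 in limma were 2 of 8 in each region, beside 665 (OF) and 558 (DR) of all 17360 genes. In OF edgeR called 1 of 8 there and DESeq2 2, and the fit with replicate pairs as a block 1 (nr1d2b), and in DR each of these called 0. Between the regions, 1517, 687 and 1009 of all 17360 genes had an unadjusted p under 0.05 in limma at 32, 48 and 56 hpf. None of the 8 genes was among them. In fits that did not use the replicate pairs, limma, edgeR and DESeq2 also called 0 of 8 between the regions at each age. Beside this stand 1.14%, 0.00576% and 0.253% of all genes called by limma in turn. These shares are 198, 1 and 44 genes. Without the replicate 5 pair of 48 hpf, a fit chosen after the data had been seen, they became 197, 70 and 73 genes. With replicate pairs as a block, limma called 650, 65 and 314 of all genes at the 3 ages in turn. The intervals between regions given above come from the fit without this block. Leaving out 1 library at a time gave 134 to 292, 0 to 52 (52 without the library labelled OF replicate 5) and 21 to 58 genes. Among the 8 genes, such fits called 1 to 2 in OF and 1 to 3 in DR for 56 against 32 hpf, 3 to 4 in each region for 48 against 32 hpf, and 0 to 1 in OF for 56 against 48 hpf.

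Summed counts of cell type markers also moved over the same interval from 32 to 48 hpf. Such sums cannot tell a change in cell number from a change in RNA per cell. The summed normalised count of 22 photoreceptor markers had a median of 1647 in OF at 32 hpf (range 327 to 3333) and 32165 at 48 hpf (10336 to 61334), and of 957 (161 to 2284) and 12598 (11059 to 20294) in DR. In DR at 32 hpf, 6 of the 22 markers, rho among them, had no read. The sum of 14 markers of dividing progenitors went from 111364 (108893 to 126392) to 35628 (31155 to 61462) in OF and from 127946 (112571 to 131863) to 55043 (41242 to 79199) in DR. Their part in the differences of the Rev-erb genes between 32 and 48 hpf was not tested. From 48 to 56 hpf, when nr1d1 and nr1d2b were lower, the photoreceptor medians were 32165 and 42606 in OF and 12598 and 17219 in DR, and the progenitor medians 35628 and 30930, and 55043 and 46972. Of the 11 marker lists looked at, 3 had their highest median at 48 hpf in both regions, as nr1d1 and nr1d2b had, namely neural crest and mesenchyme, endothelium and macrophage. The 9 neural crest and mesenchyme markers, all with reads in each group, summed to a median of 525 (82.9 to 1520), 1924 (561 to 5400) and 347 (311 to 2948) at 32, 48 and 56 hpf in OF and to 304 (163 to 562), 1299 (789 to 2087) and 311 (191 to 1682) in DR. The endothelial medians were 772 (684 to 1181), 936 (683 to 1074) and 647 (490 to 1064) in OF. In DR they were 211 (66.6 to 375), 724 (581 to 830) and 533 (230 to 782). The macrophage medians were 86.7 (4.44 to 139), 347 (151 to 390) and 266 (181 to 381) in OF. In DR they were 84.9 (9.99 to 118), 238 (152 to 319) and 228 (98.3 to 319). For these 3 lists the ranges of 48 and 56 hpf overlapped in both regions, unlike those of nr1d1 and nr1d2b. The part of these cell types in the Rev-erb values was not tested either.

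The other genes of the pathway were looked up from a list of 64 names, of which 51 were found and 49 passed the filter. These were not chosen by the rule for the 8 genes, although results of these data were known when the list was drawn up. In limma with Benjamini-Hochberg adjustment over all 17360 genes, 23 of the 49 rose and 4 fell from 32 to 48 hpf in OF, beside 25.6% of all genes higher and 9.61% lower. In DR 17 rose and 3 fell, beside 22.1% and 6.39%. The median log2 difference of the 49 was 0.90 in OF and 0.87 in DR, where that of all genes was 0.38 and 0.35. TMM scaling moved the all-gene median to 0.26 in both regions and quantile scaling to -0.16 and -0.17, and under the latter 17 rose and 5 fell in OF and 9 rose and 3 fell in DR. Of all genes called, 72.7% were higher in OF and 77.5% in DR, and 47.2% and 54.2% under quantile scaling.

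The Period genes, inhibitors of the Bmal and Clock pair, had 3 of 4 members higher at 48 than at 32 hpf in each region (per1a, per1b and per3). Of all genes, 25.6% in OF and 22.1% in DR were higher. per1a was read rarely. It passed the filter only through 48 hpf, as fewer than 5 libraries of the other ages reached 10 normalised counts. In OF it had 3.33 ± 6.46 normalised counts at 32 hpf, with 3 of 5 libraries at 0, and 21.3 ± 20.4 at 48 hpf (SD, n = 5). In DR it had 0 in all 5 libraries at 32 hpf and 11.3 ± 9.83 at 48 hpf. per1b had 88.6 ± 40.2 normalised counts at 32 hpf, 946 ± 193 at 48 hpf and 138 ± 72.3 at 56 hpf in OF, and 92.6 ± 37.4, 852 ± 265 and 155 ± 48.7 in DR (SD, n = 5). It rose by 3.52 on the log2 scale in OF (SE 0.35, adjusted p = 8.4e-09, limma) and by 3.23 in DR (adjusted p = 3e-08, limma). per3 had 157 ± 40.5, 464 ± 70 and 183 ± 32.5 in OF and rose by 1.59 (SE 0.22, adjusted p = 1.2e-06, limma), and in DR by 1.88 (adjusted p = 7.2e-08, limma). ciarta, whose mammalian counterpart also represses the Bmal and Clock pair, went from 120 ± 60.4 to 989 ± 58.5 in OF (log2 difference 3.21, SE 0.28, adjusted p = 1.1e-09, limma) and from 142 ± 50.3 to 884 ± 161 in DR (2.70, adjusted p = 1.8e-08, limma).

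From 48 to 56 hpf few genes of any kind passed the limma test, and those that did were clock genes. DESeq2 called 10 genes in OF, of which 2 were among the 8, 4 were other clock genes and 4 were on neither list. In OF the 3 genes called of 17360 were per1b, which fell by 2.90 on the log2 scale (SE 0.35, adjusted p = 5.4e-05, limma), per3, which fell by 1.35 (SE 0.22, adjusted p = 0.00418, limma), and cry1bb, a Cryptochrome gene, which rose by 1.42 (SE 0.22, adjusted p = 0.00373, limma). In DR the 2 genes called were per1b (-2.45, adjusted p = 0.00154, limma) and cry1bb (1.26, adjusted p = 0.0296, limma). The DR call of cry1bb was lost in 9 of the 10 fits that left out 1 of these libraries (adjusted p up to 0.243, limma), while per1b passed in all 10. The cry1bb call in DR was also lost under TMM scaling (1.23, adjusted p = 0.0661, limma) and with only the groups compared (adjusted p = 0.063, limma). per3 in DR had a difference of -1.13 (adjusted p = 0.0688, limma), and its change did not pass a test of difference between the regions. cry1bb ran opposite to nr1d2b, with 419 ± 91.7, 215 ± 50.7 and 567 ± 82.3 normalised counts at the 3 ages in OF and 396 ± 132, 194 ± 18.7 and 478 ± 126 in DR. It was the one Cryptochrome gene of 8 tested that fell from 32 to 48 hpf, by 0.97 in each region (adjusted p = 9.4e-04 in OF and 0.00117 in DR, limma). In each region 2 of the 8 rose, beside 25.6% of all genes in OF and 22.1% in DR. The fit with replicate pairs as a block also called ciarta in OF from 48 to 56 hpf (-1.41, adjusted p = 0.0379, limma), against an adjusted p of 0.0895 without the block.

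**Figure D4:**
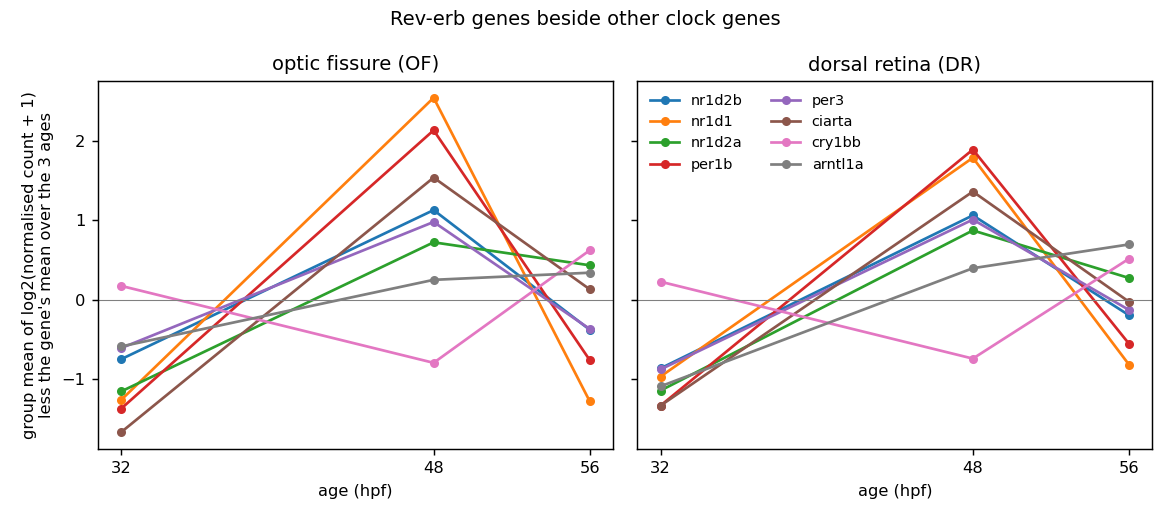
Group means on the log2(normalised count + 1) scale, less each gene's mean over the 3 ages, for the Rev-erb genes and arntl1a beside per1b, per3, ciarta and cry1bb, in OF (left) and DR (right). nr1d1, nr1d2b, per1b, per3 and ciarta peak at 48 hpf in both regions, and cry1bb is lowest there; the DR line of arntl1a includes the library with 0 reads.

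The ROR genes, which code for the activators that share elements with Rev-erb, followed another course. Of the 5 tested, 4 were higher at 48 than at 32 hpf in each region, beside 25.6% (OF) and 22.1% (DR) of all genes. At 56 against 32 hpf 4 were higher, beside 29.7% and 26.7%. roraa went from 70.6 ± 34.9 normalised counts at 32 hpf to 746 ± 208 and 930 ± 213 at 48 and 56 hpf in OF (log2 difference of 48 to 32 hpf 3.57, SE 0.34, adjusted p = 3.7e-09, limma). In DR it went from 78.1 ± 23.7 to 519 ± 136 and 567 ± 129 (2.72, adjusted p = 2.9e-07, limma). rorab rose by 2.38 in OF (adjusted p = 1.9e-05, limma) and by 1.33 in DR (adjusted p = 0.0103, limma). Between 48 and 56 hpf no ROR gene was called.

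Of the Rev-erb relatives outside the 8, nr1d4b, a low gene, was also highest at 56 hpf. It had 2.35 ± 3.01, 22.2 ± 11.2 and 36.1 ± 20.1 normalised counts in OF and 2.18 ± 1.73, 13.4 ± 7.87 and 23.7 ± 9.84 in DR, and rose from 32 to 48 hpf by 3.10 (adjusted p = 3.0e-04, limma) and 2.20 (adjusted p = 0.00906, limma). Under quantile scaling these values were 1.26 and 0.23 and neither passed. nr1d4a passed in no comparison of ages, with log2 differences of -0.12 in OF and 0.83 in DR for 48 against 32 hpf (SE 1.03). npas2, which in mammals can stand in for Clock, did not pass either, at -0.30 and -0.39 (SE 0.58).

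Output and modifier genes were mixed, and their counts stand beside 25.6% (OF) and 22.1% (DR) of all genes called higher from 32 to 48 hpf. Of the 10 PAR bZIP and Nfil3 genes tested, which code for factors that bind D-box elements, 5 rose from 32 to 48 hpf in OF and 4 in DR, and none fell. tefa rose by 1.58 in OF (adjusted p = 3.7e-05, limma) and 1.02 in DR (adjusted p = 0.00479, limma), and dbpa by 4.13 and 2.76. Of 13 kinase and ligase genes, 6 rose in OF and 2 in DR, led by csnk1e, a casein kinase gene whose mammalian product phosphorylates Period proteins (4.39 in OF, adjusted p = 4.7e-08, and 2.53 in DR, adjusted p = 1.7e-04, limma). timeless and tipin, which also serve DNA replication, both fell in each region, tipin by 1.37 in OF (adjusted p = 6.4e-05, limma) and 1.00 in DR (adjusted p = 0.00229, limma). The sums of dividing progenitor markers given above were lower too, and their part in these values was not tested.

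Over the 24 hours from 32 to 56 hpf, 20 of the 49 rose and 3 fell in OF, beside 29.7% and 12.5% of all genes, and 13 rose and 3 fell in DR, beside 26.7% and 9.03%. Quantile scaling gave 16 and 6 in OF and 8 and 6 in DR, and moved the share of higher genes among all called from 70.4% to 44.2% in OF and from 74.8% to 47.4% in DR. Among them per1b was not called in either region, and its 56 hpf libraries overlapped those of 32 hpf, and per3 was called in DR alone (0.75, adjusted p = 0.0067, against 0.25 and 0.378 in OF, limma), a difference between regions that did not pass its own test. ciarta was still higher at 56 than at 32 hpf, by 1.80 in OF (adjusted p = 6.5e-06, limma) and 1.31 in DR (adjusted p = 5.2e-04, limma). roraa was higher by 3.90 and 2.86, csnk1e by 4.87 and 2.89, and nfil3-6 by 5.23 and 4.10.

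Between the regions, limma called 1 of the 49 at 32 hpf, 0 at 48 hpf and 1 at 56 hpf, beside the same 1.14%, 0.00576% and 0.253% of all genes, with the 48 hpf share resting on the replicate 5 pair as given above. The gene was bhlhe40, whose product competes at E-boxes with the Bmal and Clock pair. At 32 hpf it stood at 850 ± 142 normalised counts in OF against 417 ± 120 in DR (log2 difference 1.06, SE 0.24, adjusted p = 0.0226, limma), 485 ± 105 and 298 ± 155 at 48 hpf, and 401 ± 40.9 and 150 ± 40 at 56 hpf (1.45, adjusted p = 0.00317, limma). The call at 32 hpf was lost under quantile scaling (0.98, adjusted p = 0.103, limma), in edgeR (1.01, adjusted p = 0.0504), with only the groups compared (adjusted p = 0.204, limma), and without DR replicate 2 or OF replicate 3 or 4 (adjusted p up to 0.0782, limma). At 48 hpf its difference was 0.79 (adjusted p = 0.655, limma) with all libraries and 1.08 (adjusted p = 0.0262, limma) without the replicate 5 pair, an alternative chosen after the data had been seen. At 48 hpf 5 of the 49 had an unadjusted p under 0.05 in limma, as had 687 of all 17360 genes, and edgeR and DESeq2 called 0 of the 49. With replicate pairs as a block 2 were called at 32 hpf (bhlhe40 and csnk1e, the latter at -1.48 with adjusted p = 0.0134, limma) and 2 at 56 hpf (bhlhe40 and tipin, the latter at -0.71 with adjusted p = 0.0394, limma). No gene of the 49 differed between OF and DR in its change between ages by limma, edgeR or DESeq2. Beside this stand 0.00576%, 0% and 0.00576% of all genes called by limma for 48 against 32, 56 against 48 and 56 against 32 hpf. Without the replicate 5 pair of 48 hpf, limma called 4, 0 and 12 of all genes in turn. At an unadjusted p under 0.05 in limma were 3, 0 and 2 of the 49, beside 660, 90 and 711 of all 17360 genes.

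The genes whose pattern was most like that of the most abundant gene of each family were ranked by Pearson's r of log2(normalised count + 1) over the 30 libraries, among 11000 genes with a mean of at least 50. The libraries share age groups, depth and scaling, so these values describe likeness and carry no test. For nr1d2b they were ciarta (0.876), per1b (0.836), hsf2 (0.817), irx1b (0.779) and per3 (0.775), 3 of them clock genes. Without the replicate 1 pair of 32 hpf, hsf2 (0.891) stood above ciarta (0.874). Over deviations from the group means, r with nr1d2b was 0.61 for ciarta, 0.64 for hsf2 and 0.46 for irx1b, but 0.10 for per1b and -0.29 for per3, whose likeness lay in the group means. hsf2, a heat shock factor gene, had group means of 444, 878 and 543 in OF and 550, 800 and 550 in DR at 32, 48 and 56 hpf. irx1b, an Iroquois homeobox gene, had 5.25, 152 and 96.7 in OF and 0.615, 144 and 87.2 in DR. Among the 8 genes nr1d2a (0.758) and nr1d1 (0.661) were nearest to nr1d2b (0.53 and -0.04 over deviations) and arntl1b (-0.212) and clocka (-0.227) farthest. Without the replicate 1 pair of 32 hpf these last 2 values were -0.342 and -0.198.

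For arntl2 the nearest genes were sema4ba (0.856), whsc1l1 (0.839), gpm6aa (0.837), zdhhc1 (0.835) and bcl2l13 (0.832), none of them on the clock list. Without the replicate 1 pair of 32 hpf, bcl2l13 (0.868) stood above sema4ba (0.86). gpm6aa, a gene of a neuronal membrane glycoprotein, had means of 4660, 8121 and 7801 in OF and 4847, 7967 and 7074 in DR, higher at both later ages like arntl2. Of the other Bmal genes arntl1a stood at 0.094 and arntl1b at -0.094, and without the replicate 1 pair of 32 hpf, an alternative chosen after the data had been seen, they stood at 0.343 and -0.087 over 28 libraries. For clocka the nearest genes reached 0.553 (fam172a), 0.528 (coq9), 0.512 (BX470211.1 and gramd4b) and 0.507 (rpap2), and clockb stood at 0.083, or 0.129 without that pair. clocka was the reference by a narrow margin, with a mean of 104 against 100 for clockb. The same pair held the highest value of clocka (243) and the lowest of clockb (6.66), so the choice leaned on it.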

How the data were processed

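Expression was measured by RNA sequencing in 30 zebrafish libraries, grouped by the region and age in their labels. Per the labels' protocols, RNA was extracted with a kit for fixed, embedded tissue and amplified with a low-input kit. The submitters' processing notes list HTSeq, DESeq2, Picard, STAR 2.4.0 and Trim Galore, with GRCz10 as genome build, but not what each did. The deposited values are signal in the sense of read counts divided by a size factor per library. Reads were recovered from their steps, and 100.0% of them were whole numbers to within 0.01; for DR replicate 3 at 48 hpf, with a step close to 1, the check could not distinguish counts from reads. Depth limits the precision of low genes, and floors (3 reads) cover counting error only.

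Tests used limma-trend (limma 3.58.1, R 4.3.3) on log2(normalised count + 1), a scale that understates changes of low genes. The 30 libraries were fitted with 6 group means, p-values were adjusted by Benjamini-Hochberg within each comparison, and calls are two-sided at an adjusted p under 0.05. Alternatives were a pseudocount of 0.5, no filter, a mean of at least 50, TMM and quantile scaling, edgeR 4.0.16, DESeq2 1.42.0, only the groups compared, a replicate block, and libraries left out. The scripts were tested on simulated data. Replicate numbers pair OF and DR within an age: deviations from group means correlated at 0.23 to 0.52 in the 15 pairs (median 0.38), and 30 of 30 libraries were closest to their own number. The 8 genes and all lists were chosen with earlier results of these data known. Named are the 8 genes, up to 8 other clock genes per comparison with the smallest adjusted p, the direct relatives npas2, nr1d4a, nr1d4b, roraa and rorab, and the 5 genes most like each reference gene. timeless and per1a, outside that rule, are named within counts, per1a also with values, and were chosen after their values were seen. No genome was used here, so no sequence, length or coordinate is given.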

Additional observations from a re-analysis of the deposited data

Results flagged for a closer look

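Of 48 groups of 5 libraries (8 genes in 6 groups), 5 had 1 library whose gap to the next exceeded 0.71 of the group's range on the log2 scale, where chance gives about 1 in 20. Of these, 3 were replicate 1 libraries at 32 hpf. arntl1a had 0 normalised counts in DR replicate 1 at 32 hpf, below the others by 0.81 of the range. clockb had 6.66 in the same library, below the others by 0.90 of the range. clocka had 243 in OF replicate 1 at 32 hpf, above the others. At the other ages arntl1a had 172 in OF replicate 4 at 56 hpf, lowest of its group, and arntl1b had 149 in DR replicate 1 at 48 hpf, highest of its group.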

How the results depend on the processing

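With 1 library left out, 5 log2 differences of the 8 genes moved by more than the replicate spread and 1195 did not, and under other settings 17 moved and 1123 did not. Those that moved are of arntl1a without DR replicate 1 at 32 hpf, or by edgeR, and of arntl1b, clocka, clockb and nr1d1 under quantile scaling. For arntl1a they lay in DR, in OF against DR at 32 hpf, and between the regions in the change from 32 hpf. The number of other clock genes called moved as follows. Quantile scaling gave 5 for OF 56 against 48 hpf (3 as reported; 1 rose and 4 fell), 12 for DR 48 against 32 hpf (20), 4 for DR 56 against 48 hpf (2; 1 rose and 3 fell) and 0 for OF against DR at 32 hpf (1). edgeR gave 15 for OF 56 against 32 hpf (23) and 0 for OF against DR at 32 hpf, as did a fit to only the groups compared. A filter at a mean of 50 gave 13 for DR 48 against 32 hpf. For DR 56 against 48 hpf TMM scaling gave 1, DESeq2 4 and the fit without the replicate 1 pair of 32 hpf 4. The replicate block gave 2 at 32 and 2 at 56 hpf for OF against DR (1 each) and changed no other count by over 1.5 times. Without the replicate 5 pair of 48 hpf, alone or with the replicate 1 pair of 32 hpf, 1 gene was called for OF against DR at 48 hpf (0). The cause of these moves was not tested. Leaving out 1 library at a time gave 1 to 2 for DR 56 against 48 hpf (1 in 9 of 10 fits, which lost cry1bb), 0 to 1 for OF against DR at 32 hpf (0 without DR replicate 2 or OF replicate 4; the gene as reported is bhlhe40), 0 to 1 at 48 hpf (1 without DR replicate 5) and 1 to 1 at 56 hpf, 23 to 27 for OF 48 against 32 hpf, 16 to 22 for DR, 20 to 24 and 14 to 21 for 56 against 32 hpf, and 3 to 3 for OF 56 against 48 hpf. The fits without 1 of these pairs were chosen after seeing the data. nr1d1, with 13 reads or fewer per library outside 48 hpf, is the gene of the 8 that depth limits most.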
